A study of Rana omeimontis with 12 samples.

Results

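Transposable elements are stretches of DNA that can move or be copied within a genome, and frog genomes hold many families of them. Transcripts named after these elements were picked from the liver and tail transcriptomes of *Rana omeimontis* tadpoles by the wording of their best protein match. A unigene, which is one assembled transcript cluster, was taken when its description named a mobile element, a transposase, a transposable element, a retrotransposon, a reverse transcriptase, LINE-1 or an element polyprotein, telomerase excepted, and when 3 or more of the 12 libraries held it at 1 FPKM or above. FPKM, the unit of all levels, is a fragment number corrected for transcript length and library size. Of 56172 unigenes 5525 carried such wording and 1431 also met the FPKM condition, against 24085 of all unigenes that met it. The letters of "LINE-1" also matched "midline-1", a ubiquitin ligase that is no element, in 4 of the 1431. These 4 were set apart, and all counts are of the remaining 1427 element unigenes (5520 by wording alone). Unigenes at the edge of the condition were weakly expressed, with a median mean FPKM of 0.664 for the 310 matches that reached 1 FPKM in exactly 3 libraries and 0.487 for the 421 that reached it in 2.

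Retroelements move through an RNA copy that a reverse transcriptase turns back into DNA. LINE-1 and jockey elements are of this kind and lack long terminal repeats. DNA transposons of the Tc1 and piggyBac families code for a transposase, an enzyme that cuts the element out and inserts it elsewhere. Host cells hold elements down with DNA methylation, repressive chromatin and, mainly in the germ line, with piwi proteins and their small RNAs. Some host genes descend from elements and do other work. PEG10, for example, is a placental gene of retrotransposon origin in mammals.

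The libraries came from tadpoles collected at Gosner stages 30 to 31 and kept for 3 days with 10 nM T3, the active thyroid hormone, or with the solvent dimethylsulfoxide as control. The labels give the control animals as pro-metamorphic and the T3-treated ones as metamorphic. There were 3 libraries each of control liver, T3 liver, control tail and T3 tail, made from polyadenylated RNA. Nothing in the sources used here says which libraries came from the same animal, so that every p-value rests on the spread of 3 libraries in a group, which may be technical.

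The summed FPKM of a library ran from 773936 to 1029985, and read depth is not known. Liver marker genes took 3.77 to 10.9% of the sum in livers and at most 0.00649% in tails, and skeletal muscle markers took 2.79 to 8.61% in tails and at most 0.00619% in livers. Exocrine pancreas markers took 8.08 and 9.99% in control livers 1 and 2, 0.0394% in control liver 3 and 0.0235 to 0.631% in T3 livers. The elements set T3 liver 2 apart. It was the highest T3 liver for 59.4% of the 904 elements at 1 FPKM or more in at least 2 T3 livers, against 23.9% of 16010 other unigenes. The median log2(FPKM + 1) of these elements was 0.44 above the mean of T3 livers 1 and 3, and that of the other unigenes was 0.21 below it (a difference of -0.21). Leukocyte markers took 0.00079% of the sum in this library and 0.0033 to 0.00421% in the other livers, and their part in the result was not tested. Counts and medians of liver comparisons that this library moved are therefore also given without it.

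By wording, 439 of the 1427 elements were unspecified reverse transcriptases, 190 were LINE-1 and 150 were jockey elements. A further 217 carried the name LINE-1 type transposase domain-containing protein 1-like. This is the name of a mammalian host gene derived from the first reading frame of LINE-1, but 217 separate unigenes with it is more than 1 gene would give, and they were counted with the retroelement names as a group of their own. Among DNA transposons 98 were Tc1-like, 48 were piggyBac and 217 were other transposases. The last 68 had names of element-derived or transposase-like proteins, such as PEG10-like (17) and piggyBac transposable element-derived protein 4-like (17). The best match came from *Xenopus tropicalis* for 28.5% of the elements and from *Rana catesbeiana* for 16%. Fish supplied many others, among them *Oryzias latipes* (10.7%) and *Clarias batrachus* (9.4%). The files give no genome position, and copies of a family that resemble each other may share reads, so that values of single unigenes are uncertain to that extent. The 1427 elements fell into 1272 assembly components, the largest with 5 of them.

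Most elements were weakly expressed. Their median mean FPKM over the 12 libraries was 1.19, against 3.0 for all unigenes that met the FPKM condition. A mean under 1 FPKM was found for 557, from 1 to 2 for 500, from 2 to 5 for 280, from 5 to 20 for 78 and of 20 or more for 12. No single unigene made up the sum, since the highest held 2.45% of the mean summed FPKM and the 100 highest held 37.6%. The highest mean belonged to the transposase DN102151_c14_g1 (75.2 FPKM), followed by the jockey-like DN121269_c10_g1 (56.0 FPKM).

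Most elements met the FPKM condition in the liver and not in the tail. The counts that follow split by tissue the same condition that admitted the members. Of the 1427 unigenes 838 (58.7%) reached 1 FPKM in at least 3 of the 6 livers but not in 3 tails, whereas this held for 19.4% of all unigenes that met the condition. The reverse, tail but not liver, held for 106 (7.4%) against 17.3%, and 382 (26.8%) reached it in both tissues against 59.2%. LINE-1 unigenes were the most one-sided of the groups, with 76.8% in the liver alone by this measure and 0.5% in the tail alone. Among other transposases these shares were 42.4 and 22.1%. Listed at 0 in all 6 tails were 56 elements, and 11 were listed at 0 in all 6 livers. Above 0 in all 12 libraries were 727 elements.

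Element transcripts took 0.394, 0.428 and 0.458% of the summed FPKM in control livers 1 to 3 and 0.230, 0.186 and 0.176% in control tails 1 to 3. T3 livers 1 to 3 held 0.350, 0.591 and 0.332%, and T3 tails 1 to 3 held 0.296, 0.266 and 0.204%. Every liver was above every tail. The FPKM condition enters this order. It was met in at least 3 livers but not in 3 tails by 838 members, and the reverse held for 106. Sums over the wording matches without the condition were not taken. Retroelement names (LINE-1, its transposase domain protein, jockey and unspecified reverse transcriptases) took 0.300 ± 0.0246% in control livers and 0.105 ± 0.0145% in control tails (SD, n = 3). DNA transposon names took 0.106 ± 0.00637% and 0.0755 ± 0.018% (SD, n = 3). The DNA transposon share of T3 tails (0.0873 to 0.117%) overlapped that of both liver groups, while the retroelement share of all tails (0.0928 to 0.162%) stayed below that of all livers (0.221 to 0.432%). Sums over the members were not tested.

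**Figure D1:**
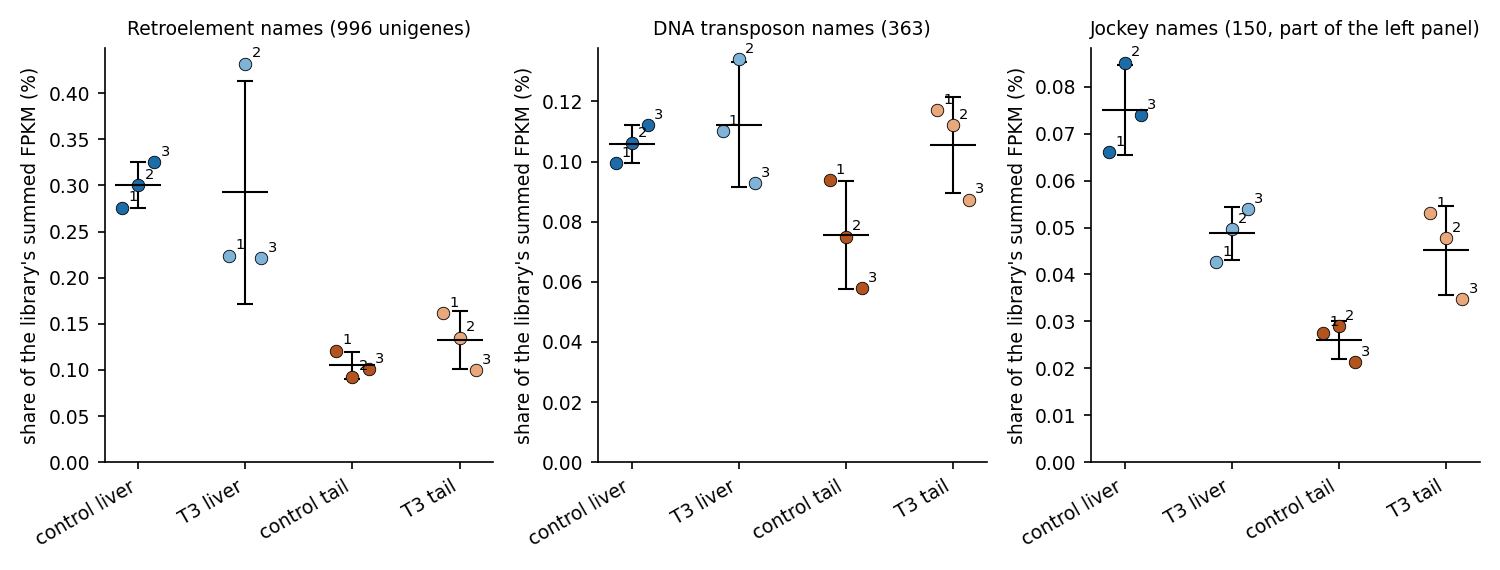
Share of each library's summed FPKM (%, y axis) taken by retroelement names, DNA transposon names and jockey names in the 4 groups (x axis); points are libraries with their number, the line is the mean and bars are SD (n = 3). Retroelement shares of livers (0.221 to 0.432%) lie above those of tails (0.0928 to 0.162%), and T3 liver 2 is the highest library in the first 2 panels but not for jockey names. The FPKM condition that admitted the members enters these shares, since more members met it in the liver alone than in the tail alone.

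Comparing control liver with control tail asks which elements differ between the tissues without hormone. Over all 19642 unigenes tested, 47.1% were called, 25.3% as higher and 21.8% as lower in the liver (limma on log2(FPKM + 1), adjusted p below 0.05 by the Benjamini-Hochberg method). Of the 946 elements tested 557 (58.9%) were higher in the liver and 29 (3.07%) were lower. The median difference was 0.95 on the log2(FPKM + 1) scale, against 0.04 for all unigenes. On this scale changes of weakly expressed genes are understated.

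In every element group more unigenes were higher in the liver than lower, but these counts include unigenes that met the filter through the liver alone. Of LINE-1 unigenes 84 of 117 were higher in the liver and 0 were lower (median 0.98), and for the LINE-1 type transposase domain protein these counts were 94 and 2 of 136 (median 1.07). Unspecified reverse transcriptases were higher in 206 and lower in 3 of 304 (median 0.99), jockey elements in 56 and 4 of 120 (median 0.87), and piggyBac transposases in 21 and 0 of 34 (median 0.96). Names of element-derived proteins were higher in 25 and lower in 1 of 43 (median 1.02). Tc1-like transposases came nearest to the background, with 19 higher and 6 lower of 63 (30.2 and 9.52%, median 0.30), followed by other transposases with 52 and 13 of 129 (40.3 and 10.1%, median 0.47). Taken as classes, 65% of 677 retroelement names were higher in the liver and 1.33% lower, and for 226 DNA transposon names these shares were 40.7 and 8.41%.

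Many elements entered the comparison through the liver alone. Of the 946 tested, 341 reached 1 FPKM in no control tail and 20 reached it in no control liver, so that their high tissue admitted them. Among the 585 that reached it in at least 1 library of each tissue 221 (37.8%) were higher in the liver and 11 (1.88%) were lower, against 18.3 and 17% of 15890 unigenes of that kind. In this subset, added after the data were seen, 43.3% of 406 retroelement names were higher and 1.72% lower (median 0.75), and 22.7% of 150 DNA transposon names were higher and 2% lower (median 0.30). LINE-1 had 35 higher and 0 lower of 68, Tc1-like transposases 8 and 2 of 47, and other transposases 15 and 1 of 79. The difference between the classes was not tested. Shares by mean level over both tissues were again taken over all 946 elements tested, with those that met the filter through 1 tissue alone. The filter thus enters these shares too. Under 1 FPKM 60% of elements were higher in the liver against 35.4% of other unigenes. From 1 to 2 FPKM 53.6% of elements were higher in the liver against 22.3% of other unigenes, from 2 to 5 FPKM 67.1% against 22%, and from 5 to 20 FPKM 61.1% against 20.9%. Of the 13 elements at 20 FPKM or more 5 were higher and 2 lower. With no FPKM condition, 4772 wording matches above 0 in these libraries gave 720 higher and 46 lower (15.1 and 0.964%). Of 51383 unigenes above 0, 10.5% were higher and 8.14% lower. A higher mean in the liver was found for 77.9% of the wording matches, against 57.6% of all unigenes.

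The split held under the other scalings (527 higher and 32 lower with equal library sums, 535 and 29 with median ratios, 487 and 38 with quantiles). Leaving out control liver 1, 2 or 3 reduced the calls to 202, 196 and 206 of 566, 544 and 545 elements tested. With 2 control livers an element of the liver alone rarely met the filter. The called shares were then 35.7, 36 and 37.8% of elements, beside 33.5, 33.3 and 34.9% of all unigenes. Of the calls among elements 171 to 179 were higher in the liver. Without control livers 1 and 2, which carried pancreas transcripts, the median difference of 358 elements was 0.65, against -0.13 for all unigenes.

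**Figure D2:**
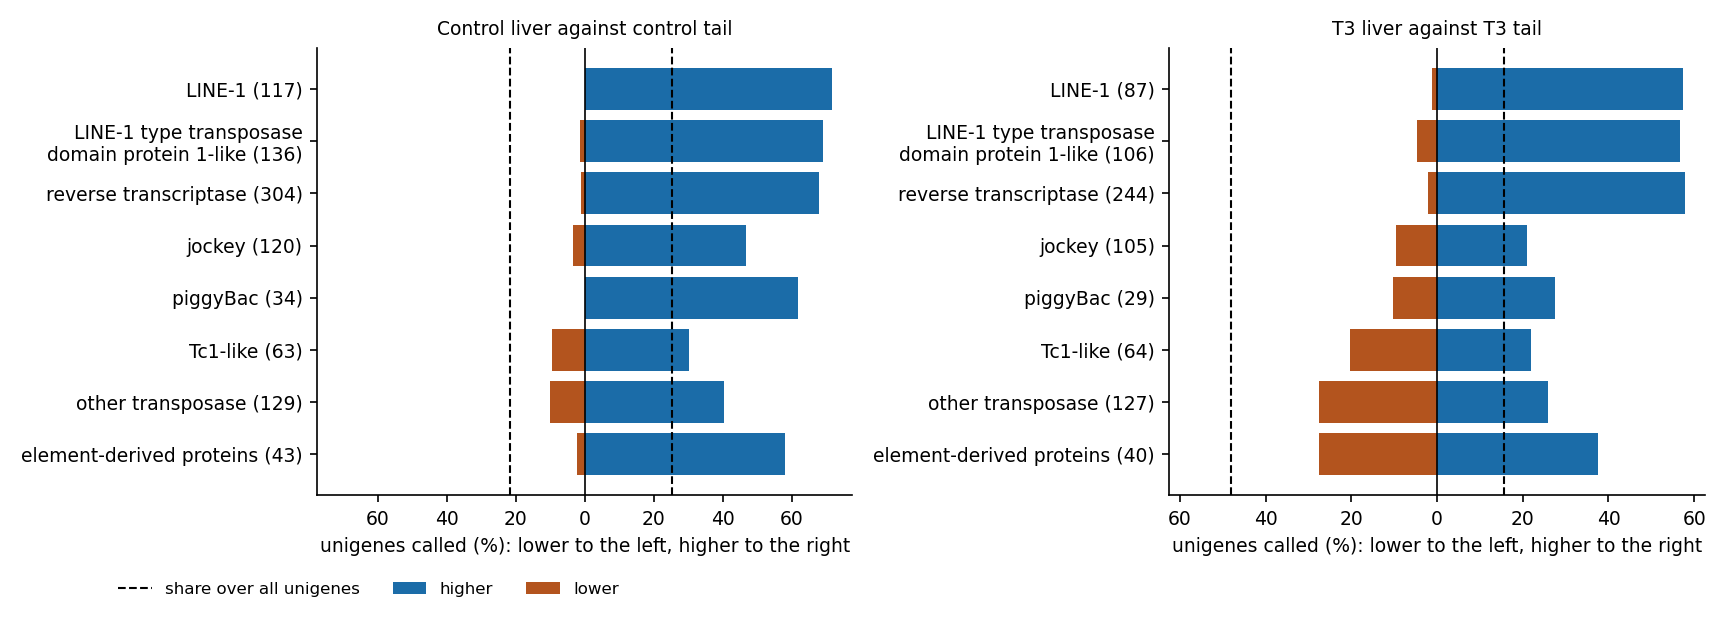
Percentage of tested unigenes in each element group (number tested in brackets) that was higher in the liver (right) or lower (left), without hormone and after T3; dashed lines give the shares over all unigenes. In control animals every group lies under the background of 21.8% on the lower side, and LINE-1 reaches 71.8% on the higher side. These shares include unigenes that met the filter through 1 tissue alone. Of the 946 elements tested in control animals, 341 reached 1 FPKM in no control tail and 20 in no control liver. Among LINE-1 unigenes at 1 FPKM in at least 1 library of each control tissue, 51.5% of 68 were higher.

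The tissue contrast was next taken in T3-treated animals, a comparison added after the data were seen. Here 63.7% of all 19621 unigenes were called, 48% as lower in the liver and 15.7% as higher. Of 802 elements 343 were higher in the liver and 83 were lower, and their median difference of 0.73 lay 1.37 above that of all unigenes (-0.64). Of the 802, 195 reached 1 FPKM in no T3 tail and 49 in no T3 liver. Among the 558 that reached it in at least 1 library of each, 156 were higher and 35 lower (28 and 6.27%), against 10.8 and 44.4% of 15727 unigenes of that kind. In this subset retroelement names had 126 higher and 13 lower of 379 and DNA transposon names 21 and 15 of 149. Jockey elements had 8 and 5 of 86, and other transposases 13 and 9 of 80. The class counts that follow are of all elements tested, with those that met the filter through 1 tissue alone. Retroelement names remained on the liver side with 273 higher and 21 lower of 542. DNA transposon names had 55 higher and 51 lower of 220 (median -0.12, and 0.38 after median-ratio scaling). The other transposases had 33 and 35 of 127 (45 and 24 after median-ratio scaling), and jockey elements 22 and 10 of 105 with a median of 0.07 (41 and 5 with a median of 0.54 after that scaling). Among the elements tested in both comparisons 229 were higher in the liver in both, 20 were lower in both and 4 were higher without and lower with hormone. The like counts over all unigenes were not taken. Leaving out any T3 liver reduced the calls, and fewer elements then met the filter. Without T3 liver 1, 2 or 3 there were 154, 111 and 172 elements higher and 81, 75 and 80 lower of 559, 545 and 558. The called shares were 42, 34.1 and 45.2% of elements, beside 60.5, 57 and 60.7% of all unigenes. Retroelement names that were higher numbered 123, 83 and 138, and their median was 0.74, 0.54 and 0.78 in place of 0.91. Without T3 liver 2 the LINE-1 median was 0.71 in place of 1.10, and that of its transposase domain protein was 0.59 in place of 1.10. Leaving out T3 tail 2 or 3 gave 239 and 22 or 222 and 33.

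Some of the largest differences were in unigenes listed at 0 throughout a tissue. Such a unigene met the filter only through its high tissue, so that its p-value describes that unigene and adds nothing to the counts above. The jockey-like DN103548_c8_g1, which codes for a reverse transcriptase, had 27.78, 17.59 and 16.99 FPKM in control livers, 15.05, 16.75 and 27.86 in T3 livers and was listed at 0 in all 6 tails (adjusted p = 1.05e-06 between control tissues). The liver groups overlapped. The reverse transcriptase DN98940_c4_g2 had 14.46, 22.05 and 13.24 FPKM in control livers and 3.23, 3.14 and 3.00 in T3 livers, and was also listed at 0 in every tail (adjusted p = 1.62e-06).

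The tail had a few strong transcripts of its own. The transposase DN119976_c5_g1 was listed at 0 in all 6 livers and had 48.63, 61.60 and 37.15 FPKM in control tails and 18.07, 20.71 and 22.33 in T3 tails (adjusted p = 1.99e-07 between control tissues). The transposase-like DN97843_c4_g2 had 52.12, 97.16 and 117.56 FPKM in control tails against 0.33, 1.83 and 0.16 in control livers (log2 difference -5.70, SE 0.41, adjusted p = 4.64e-06). T3 tails had less of it, with 24.93, 30.56 and 61.06 FPKM. Of the same kind was the reverse transcriptase DN122007_c0_g1, at 40.65, 17.10 and 8.18 FPKM in control tails and 0.13 to 0.84 FPKM in control livers (log2 difference -3.80, SE 0.49, adjusted p = 0.000228). No control liver reached 1 FPKM for DN122007_c0_g1. It met the filter of this comparison only through the control tails, and the lack of overlap followed from it.

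The most abundant LINE-1 and transposase domain unigenes followed their groups. The LINE-1 reverse transcriptase homolog DN98713_c0_g1 had 14.72, 9.65 and 16.54 FPKM in control livers and 0.81, 1.04 and 0.43 in control tails (log2 difference 3.04, SE 0.28, adjusted p = 2.25e-05). T3 livers held 15.12, 43.92 and 19.85 FPKM, the highest value being T3 liver 2. The transposase domain unigene DN97373_c0_g1 had 17.89, 17.85 and 29.96 FPKM in control livers, 16.22, 45.81 and 8.76 in T3 livers and 2.18 to 5.24 in the 6 tails. Here, too, T3 liver 2 was the highest library.

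Some abundant elements did not differ between the tissues beyond the spread. The Tc1-like DN112257_c6_g1 had 43.49, 54.51 and 47.18 FPKM in control livers and 66.63, 56.75 and 27.45 in control tails (log2 difference 0.03, SE 0.33, adjusted p = 0.943). The reverse transcriptase DN122416_c6_g1 was at 18.30 to 30.77 FPKM in control livers and 16.86 to 26.73 in control tails (log2 difference 0.07, SE 0.28, adjusted p = 0.867).

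What set T3 liver 2 apart was not shared by all elements. Against T3 livers 1 and 3 the median log2(FPKM + 1) difference was 0.88 for LINE-1 (135 unigenes), 0.83 for the LINE-1 type transposase domain protein (143), 0.59 for unspecified reverse transcriptases (293) and 0.46 for piggyBac (34). It was 0.14 for Tc1-like (51) and 0.10 for other transposases (112), and -0.18 for jockey elements (100), close to the -0.21 of other unigenes. LINE-1 transcripts took 0.0750% of the sum in T3 liver 2, 0.0323 and 0.0273% in T3 livers 1 and 3 and 0.0379 to 0.0441% in control livers. In T3 liver 2 169 of 190 LINE-1 unigenes reached 1 FPKM, compared with 109 and 106 in the other T3 livers and 143 to 146 in control livers. The piggyBac transposase Uribo2 unigene DN121624_c3_g1, the most abundant of its group, had 100.99 FPKM there and 30.48 to 36.83 in the other 5 livers. A transposase, DN97617_c1_g1, varied still more, with 75.11, 158.04 and 5.52 FPKM in T3 livers and 6.51, 29.98 and 8.12 in control livers.

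**Figure D3:**
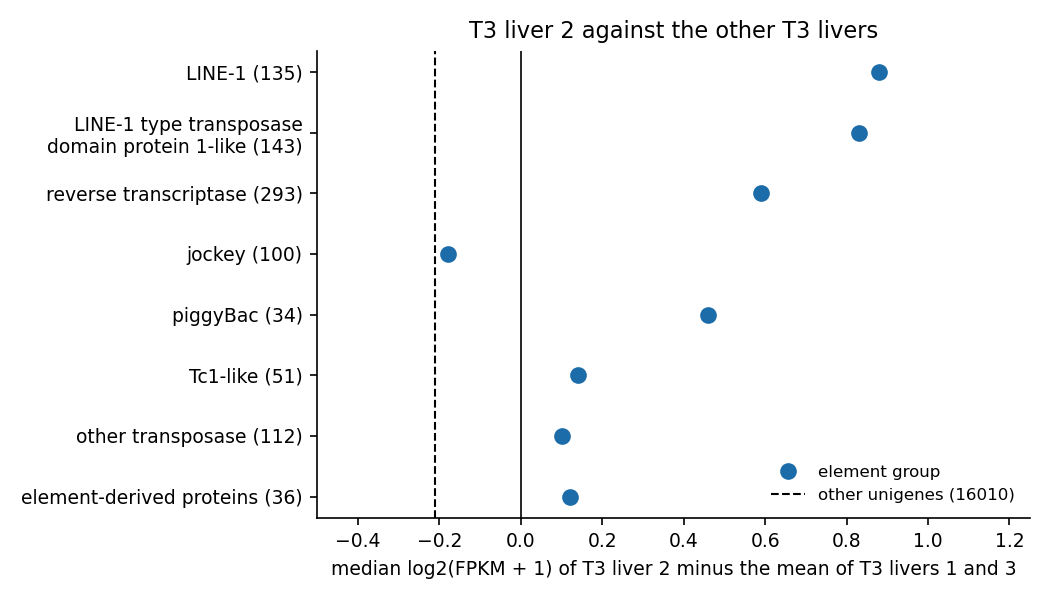
Median difference in log2(FPKM + 1) between T3 liver 2 and the mean of T3 livers 1 and 3 (x axis) for each element group (number of unigenes in brackets); the dashed line is the median of 16010 other unigenes. LINE-1 lies at 0.88 and its transposase domain protein at 0.83, while jockey elements lie at -0.18, near the dashed line at -0.21.

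Within the liver, T3 treatment was compared with control to see which elements followed the hormone. Of all 18923 unigenes tested 3.83% rose and 8.67% fell (12.5% called). Of 1220 elements 22 rose and 54 fell, which makes 6.23% called. Of the 1220, 53 reached 1 FPKM in no T3 liver and 17 in no control liver, so that their high group admitted them. Among the 1150 that reached it in at least 1 library of each group 16 rose and 29 fell (1.39 and 2.52%). Of 18095 unigenes of that kind 3.11% rose and 7.74% fell. The median change of all 1220 elements was -0.15 and that of all unigenes was -0.26. Relative to all unigenes the elements thus lay 0.11 higher, and 0.09 lower (-0.09) when T3 liver 2 was left out. Without a filter on low values this difference was -0.04. The gap also varied with level. From 1 to 2 FPKM the median was -0.18 for elements and -0.21 for other unigenes, and from 5 to 20 FPKM it was -0.06 and -0.3. The balance of rises and falls depended on the scaling, with 29 rises and 25 falls after median-ratio scaling and 32 and 24 after quantile normalization, where the median change of all unigenes was -0.02 and -0.03.

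The shares by level that follow are of all elements tested, with those that met the filter through 1 group alone. By level, 6.25% of elements and 5.77% of other unigenes were called under 1 FPKM, 4.46 and 5.78% from 1 to 2 FPKM and 7.5 and 8.93% from 2 to 5 FPKM. From 5 to 20 FPKM these shares were 7.95 and 15.5%, and at 20 FPKM and over they were 15.8 and 29.1%. LINE-1 unigenes had 1 rise and 3 falls of 175, and the transposase domain protein had 3 and 3 of 201. Jockey elements had 3 rises and 11 falls of 127 (median -0.27), other transposases 3 and 9 of 151 (-0.22) and unspecified reverse transcriptases 8 and 19 of 399 (-0.14). Among those at 1 FPKM in at least 1 library of each liver group, LINE-1 had 0 rises and 0 falls of 168. The transposase domain protein then had 2 and 2 of 193 and jockey elements 2 and 7 of 119. Other transposases had 2 and 4 of 139 and reverse transcriptases 7 and 10 of 376. Without T3 liver 2 the medians of LINE-1 and of the transposase domain protein moved from -0.06 and -0.09 to -0.34 and -0.41, and 11 elements rose and 49 fell in all. After median-ratio scaling these 2 medians were 0.14 and 0.13, and that of jockey elements was -0.08. The count of called elements was 18, 13 or 12 with control liver 1, 2 or 3 left out and 44 with T3 liver 1 left out. These were 1.72, 1.28, 1.16 and 3.93% of the elements tested. Of all unigenes 4.38, 3.96, 3.64 and 9.11% were called in the same cases, so that the fall was not particular to elements. With control liver 3 alone against the T3 livers 1 element was called.

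The strongest change was the near loss of 1 jockey-like transcript. DN121269_c10_g1 had 168.82, 299.70 and 182.93 FPKM in control livers and 1.35, 7.42 and 9.80 in T3 livers, with no overlap (log2 change -5.14, SE 0.55, adjusted p = 0.00226). It was the most abundant element of control livers and was listed at 0 in control tails, with 0, 0.47 and 1.19 FPKM in T3 tails. Its level in control liver 3, where pancreas markers took 0.0394% of the sum, lay between those of control livers 1 and 2, where they took 8.08 and 9.99%. The part of pancreas tissue in the fall of DN121269_c10_g1 was not tested. Without control livers 1 and 2 the log2 change was -4.94 (adjusted p = 0.0784), with 1 control library left. The share of jockey transcripts in the sum was 0.0750 ± 0.0096% in control livers and 0.0487 ± 0.00566% in T3 livers (SD, n = 3), with no overlap. Without DN121269_c10_g1 these shares were 0.0535 ± 0.00342% and 0.0481 ± 0.00521%, and the groups overlapped.

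The other large falls were in unigenes that were listed at or near 0 in tails. The TC1-like transposase DN95150_c8_g1 had 7.01, 7.07 and 11.11 FPKM in control livers and 0.58, 0.28 and 1.41 in T3 livers (log2 change -2.44, SE 0.31, adjusted p = 0.00452). The LINE-1 reverse transcriptase homolog DN122496_c3_g4 went from 4.41, 6.20 and 6.87 FPKM to 0.08, 0.55 and 0.38 (-2.35, SE 0.26, adjusted p = 0.00242). The putative transposase DN90291_c4_g4 went from 3.93, 4.98 and 6.48 FPKM to 0.43, 0 and 0.83 (-2.13, SE 0.30, adjusted p = 0.0069). In none of these did the groups overlap, and each was at 0.07 FPKM or less in every tail. They were picked among the largest called falls, and the like count of non-overlap over all unigenes was not taken. For DN122496_c3_g4 and DN90291_c4_g4 no T3 liver reached 1 FPKM. They met the filter only through the control livers, and the lack of overlap followed from it. The reverse transcriptase DN98940_c4_g2, described above, fell by 2.06 on the log2 scale (SE 0.24, adjusted p = 0.00314).

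Among the largest rises in the liver were those of 2 transposases. DN114630_c3_g1 had 37.19, 63.55 and 74.84 FPKM in T3 livers, 12.71 in control liver 1 and was listed at 0 in control livers 2 and 3 (log2 change 4.58, SE 0.96, adjusted p = 0.0245). All 6 tails had 1.96 FPKM or less. DN98233_c4_g5 was listed at 0 in control livers and in every tail and had 5.85, 4.26 and 4.97 FPKM in T3 livers (adjusted p = 0.000909). It met the filter only through the T3 livers, and the lack of overlap followed from it. A transposable element Tc1 transposase, DN110197_c8_g3, went from 0, 1.85 and 0.20 FPKM to 5.22, 8.31 and 3.97 (log2 change 2.13, SE 0.44, adjusted p = 0.0233). A transposase domain unigene, DN116032_c0_g4, rose from 0, 0 and 1.10 FPKM to 9.49, 29.77 and 2.00 (log2 change 2.95, SE 0.78, adjusted p = 0.0478), with its highest value in T3 liver 2. Of these 4 rises, that of DN98233_c4_g5 kept its call without any 1 control liver, and without 1 T3 liver it no longer met the filter and was not tested. The call of DN114630_c3_g1 was lost without control liver 2 or 3 or T3 liver 2 or 3 (adjusted p = 0.0763, 0.0827, 0.0644 and 0.0658). That of DN110197_c8_g3 was lost without control liver 1 or 3 or T3 liver 1 or 2 (0.0756, 0.0882, 0.0532 and 0.0588). For DN116032_c0_g4 it was lost without control liver 1, 2 or 3 or T3 liver 1 or 2 (0.132, 0.134, 0.0924, 0.102 and 0.0771), and it was kept in 4 of 17 alternatives in all. It was also lost with a pseudocount of 5, after median-ratio scaling or quantile normalization, without the trend and with a replicate block.

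In the tail T3 moved many transcripts, and a smaller share of the elements was called. Of all 18429 unigenes tested 19.2% rose and 6.23% fell (25.4% called). Of 488 elements 53 (10.9%) rose and 18 (3.69%) fell, 14.5% in all. Of the 488, 26 reached 1 FPKM in no control tail and 8 in no T3 tail, so that their high group admitted them. Among the 454 that reached it in at least 1 library of each group 35 rose and 14 fell (7.71 and 3.08%). Of 17469 unigenes of that kind 17.2% rose and 5.66% fell. The shares by level that follow are of all 488 elements tested, with those that met the filter through 1 group alone. By level, 6.9% of elements and 15.8% of other unigenes were called under 1 FPKM, 9.39 and 13.4% from 1 to 2 FPKM, 20.6 and 23.7% from 2 to 5 FPKM and 26.1 and 30.3% from 5 to 20 FPKM. At 20 FPKM and over the order was the opposite, with 62.5% of 8 elements against 36.2%. The median change was 0.18 for elements and 0.31 for all unigenes, a difference of -0.13. After median-ratio scaling, which set the median of all unigenes at 0.01, 37 rose and 24 fell, and after quantile normalization 34 and 31. Equal library sums gave 76 and 13. Fewer were called without T3 tail 1, 2 or 3 (31, 28 and 40) or without control tail 3 (44). Bulk values of a regressing tail cannot tell fewer cells of a type from less RNA per cell. Muscle markers took 4.75 to 8.61% of the sum in control tails and 2.79 to 4.43% in T3 tails, and their part in the changes of elements was not tested.

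Jockey elements went one way in the tail, with 15 rises and 0 falls of 82 (18.3%) and a median of 0.49. The share that rose was near the 19.2% of all unigenes. After median-ratio scaling 8 rose and 0 fell. Their share of the sum was 0.0276, 0.0290 and 0.0214% in control tails and 0.0531, 0.0477 and 0.0347% in T3 tails, with no overlap. The piggyBac group had 4 rises and 0 falls of 19, Tc1-like transposases 8 and 1 of 54, and other transposases 15 and 7 of 107. Of those tested, 3 jockey and 3 piggyBac unigenes reached 1 FPKM in no control tail, so that T3 tails admitted them. Among unigenes at 1 FPKM in at least 1 library of each tail group, 12 of 79 jockey elements rose (15.2%). For piggyBac this was 1 of 16 (6.25%), and for all unigenes of that kind it was 17.2%. Among names of the LINE-1 type calls were few. LINE-1 had 0 rises and 1 fall of 30, the transposase domain protein 3 and 0 of 45, and unspecified reverse transcriptases 5 and 8 of 120 (median 0.05). After median-ratio scaling the median of jockey elements was 0.16 and that of the reverse transcriptases was -0.17.

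**Figure D4:**
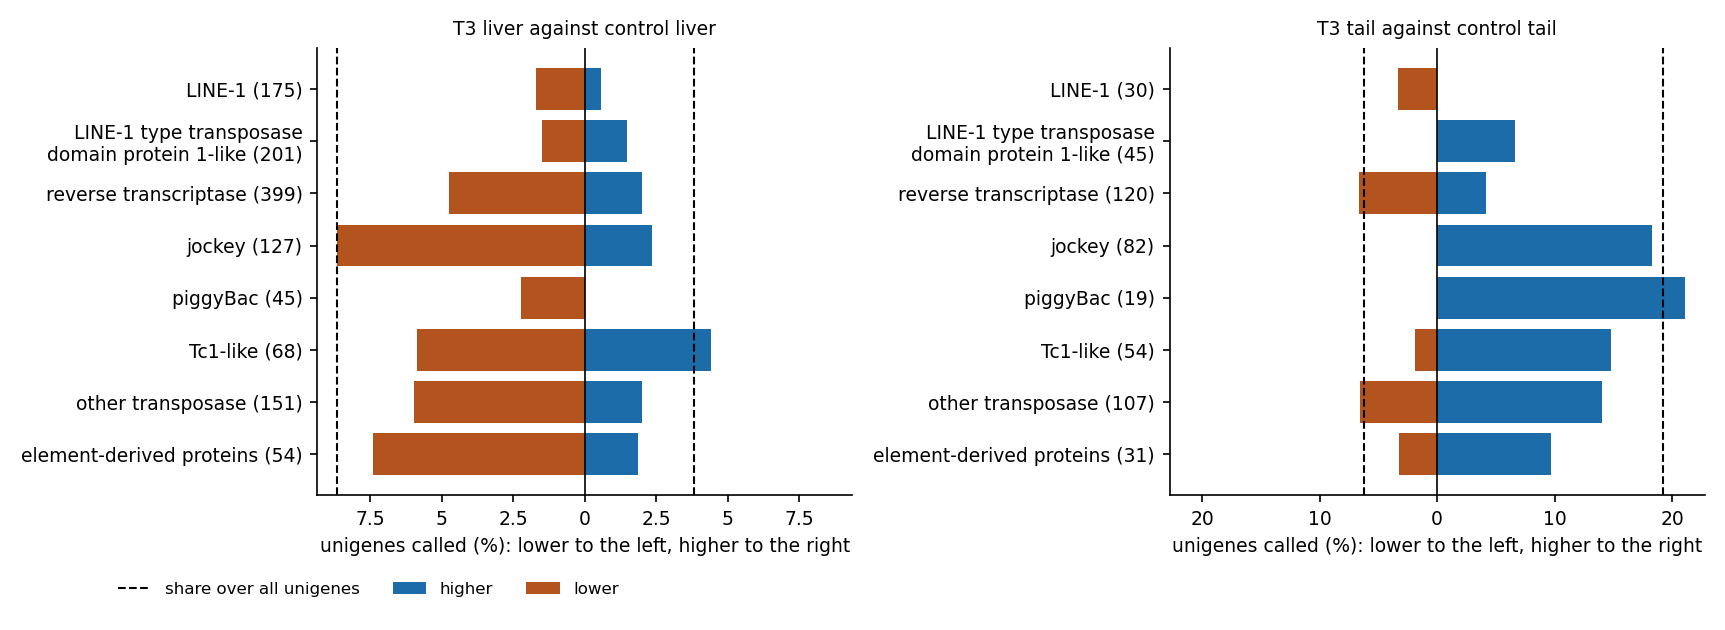
Percentage of tested unigenes in each element group (number tested in brackets) that rose (right) or fell (left) after T3 in liver and tail; dashed lines give the shares over all unigenes, and the x axes differ between the panels. In the liver LINE-1 and its transposase domain protein show few calls either way, and in the tail jockey and piggyBac show rises of 18.3 and 21.1% and no falls. All shares include unigenes that met the filter through 1 group alone. Without these, 15.2% of jockey and 6.25% of piggyBac unigenes rose in the tail.

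The largest rise in the tail was that of the transposase DN100047_c13_g1, from 0, 0.63 and 0.31 FPKM to 7.22, 5.47 and 5.12 (log2 change 2.42, SE 0.27, adjusted p = 0.000191). It was listed at 0 in every liver but T3 liver 3 (0.67 FPKM). The piggyBac transposase Uribo2 unigene DN102637_c2_g1 rose from 0.07, 0.63 and 0.51 FPKM to 3.71, 2.67 and 3.24 (1.60, SE 0.27, adjusted p = 0.00203). Of jockey-like unigenes DN121763_c3_g2 rose from 1.17, 0.20 and 0 FPKM to 5.30, 4.14 and 3.96 (1.98, SE 0.32, adjusted p = 0.0016). DN99461_c4_g1, also jockey-like, rose from 1.01, 2.12 and 0.90 FPKM to 8.90, 8.17 and 3.05 (1.65, SE 0.37, adjusted p = 0.00889). The Tc1 transposase DN122188_c9_g1 rose from 0.49, 2.52 and 0.72 FPKM to 6.08, 4.47 and 4.70 (1.54, SE 0.34, adjusted p = 0.00804). In all 5 the T3 tails lay above the control tails. The 5 were picked as the largest called rises, and the like count over all unigenes was not taken. For DN100047_c13_g1 and DN102637_c2_g1 no control tail reached 1 FPKM. They met the filter only through the T3 tails, and this order followed from it. Leaving out 1 control tail lost none of the 5 calls. Leaving out 1 T3 tail lost none for DN121763_c3_g2, DN99461_c4_g1 and DN122188_c9_g1, whereas DN100047_c13_g1 and DN102637_c2_g1 then no longer met the filter and were not tested.

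The largest falls in the tail were mostly of reverse transcriptases. DN122409_c2_g2 fell from 10.93, 26.85 and 17.98 FPKM to 3.84, 4.13 and 2.43 (log2 change -2.07, SE 0.33, adjusted p = 0.00165), and DN122340_c4_g1 from 40.42, 32.64 and 55.19 to 12.64, 13.73 and 9.61 (-1.73, SE 0.27, adjusted p = 0.0015). DN122007_c0_g1, the reverse transcriptase of the tail described above, fell to 4.22, 5.17 and 6.97 FPKM (-1.58, SE 0.46, adjusted p = 0.0294). DN95051_c4_g1 had 2.16, 3.42 and 6.71 FPKM in control tails and 0.72, 1.55 and 0 in T3 tails (-1.54, SE 0.40, adjusted p = 0.0191). The exception was a TC1-like transposase, DN113205_c4_g1, which fell from 4.48, 5.07 and 3.56 FPKM to 0.64, 0.88 and 0.22 (-1.78, SE 0.27, adjusted p = 0.00113). No T3 tail reached 1 FPKM for DN113205_c4_g1. It met the filter only through the control tails, and the lack of overlap followed from it. Without 1 control tail it no longer met the filter and was not tested. The tail transcripts DN119976_c5_g1 (-1.21, SE 0.26, adjusted p = 0.00771) and DN97843_c4_g2 (-1.20, SE 0.38, adjusted p = 0.0422) fell as well. Some of these calls rested on single libraries. That of DN122007_c0_g1 was lost without T3 tail 1 or 2 (adjusted p = 0.0758 and 0.0737), and that of DN95051_c4_g1 without control tail 3 or T3 tail 3 (0.0741 and 0.0572). DN97843_c4_g2 lost its call without control tail 2 or 3 or T3 tail 1 or 2 (0.094, 0.131, 0.142 and 0.133).

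**Figure D5:**
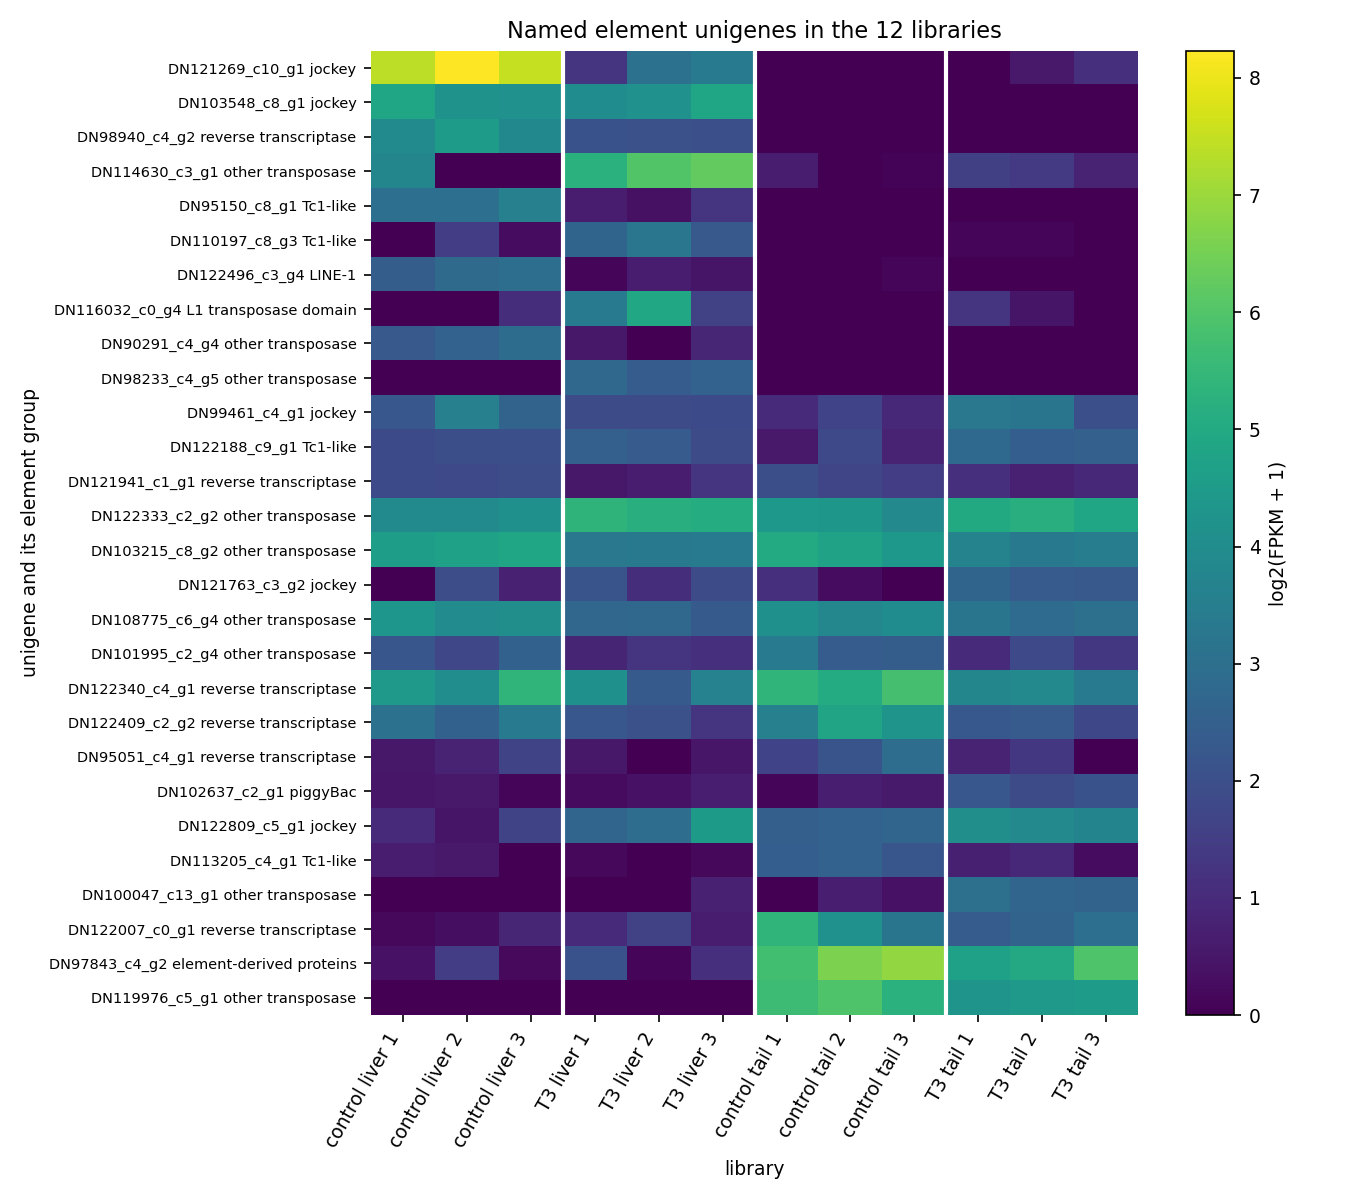
Log2(FPKM + 1) (colour) of 28 named element unigenes (rows, with element group) in the 12 libraries (columns), ordered from the liver side to the tail side. The jockey-like DN121269_c10_g1 in the first row is bright in the 3 control livers alone (168.82 to 299.70 FPKM), and the transposase DN119976_c5_g1 in the last row is listed at 0 in all 6 livers.

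Of the 382 elements tested in both tissues a few moved the same way in both, 2 up and 4 down, and 0 were called in opposite directions. The like counts over all unigenes were not taken, so that these say nothing particular to elements. These 6 were picked for their calls. The transposase DN122333_c2_g2 rose from 14.37, 14.31 and 16.73 FPKM to 40.02, 35.47 and 33.44 in the liver (log2 change 1.21, SE 0.19, adjusted p = 0.00956). In the tail it rose from 19.89, 19.53 and 13.54 to 31.15, 35.18 and 28.60 (0.82, SE 0.25, adjusted p = 0.0365), a call that was lost without control tail 2 or 3 or any 1 T3 tail (0.0644 to 0.159). The jockey-like DN122809_c5_g1 rose from 1.00, 0.38 and 2.24 FPKM to 5.44, 6.66 and 21.22 in the liver (2.31, SE 0.52, adjusted p = 0.0305) and from 4.62, 5.04 and 5.38 to 15.76, 13.62 and 12.08 in the tail (1.30, SE 0.24, adjusted p = 0.00346). Its call in the liver was lost without control liver 1, 2 or 3 or T3 liver 2 (0.0889, 0.0971, 0.0549 and 0.051).

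Among the 4 that fell were 2 putative transposases whose replicates lay close together. DN103215_c8_g2 had 23.60, 25.44 and 27.53 FPKM in control livers and 8.92, 9.0 and 9.20 in T3 livers (log2 change -1.40, SE 0.18, adjusted p = 0.00501). In tails it had 31.47, 25.98 and 20.01 FPKM without and 11.94, 9.0 and 10.30 with T3 (-1.22, SE 0.26, adjusted p = 0.00725). DN108775_c6_g4 fell from 18.88, 14.63 and 15.78 FPKM to 5.53, 5.87 and 4.01 in the liver (-1.51, SE 0.22, adjusted p = 0.008) and from 16.65, 13.05 and 15.01 to 8.22, 6.40 and 7.15 in the tail (-0.95, SE 0.24, adjusted p = 0.017, and 0.0939 and 0.062 without T3 tail 2 or 3). The putative transposase DN101995_c2_g4 (adjusted p = 0.0424 for the liver, 0.0152 for the tail) and the reverse transcriptase DN121941_c1_g1 (0.0432 in both) fell by 0.80 to 1.35 on the log2 scale. In the liver the call of DN101995_c2_g4 was lost without any 1 library (0.0582 to 0.148) and that of DN121941_c1_g1 without any but T3 liver 3 (0.0802 to 0.143). In the tail that of DN101995_c2_g4 was lost without T3 tail 1 (0.0571), and that of DN121941_c1_g1 without control tail 1 or 2 or any 1 T3 tail (0.0732 to 0.165).

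Whether the T3 effect itself differed between the tissues was tested as liver change minus tail change over all 24085 unigenes, of which 3.48% were called higher in the liver and 14.3% lower (17.8% in all). Of the 1427 elements 20 were higher and 79 lower (6.94% called), with a median of -0.21 against -0.48. The elements thus lay 0.27 above all unigenes, but 0.08 above them without T3 liver 2 and 0.04 below them without a filter on low values (a difference of -0.04). Without T3 liver 2 the LINE-1 median went from -0.02 to -0.29, and that of its transposase domain protein from -0.06 to -0.34. Median-ratio scaling turned these counts to 34 and 29. Leaving out single libraries gave 48 to 105 calls. The count fell to 61, 65 and 62 without control liver 1, 2 or 3, to 65 without control tail 3 and to 59 and 48 without T3 tail 1 or 2. Jockey elements had 0 higher and 17 lower of 150 (median -0.54), and 3 higher and 6 lower after median-ratio scaling. The jockey-like DN121269_c10_g1 had the largest difference of the elements (-5.70, SE 0.68, adjusted p = 0.00017). The most abundant element, the transposase DN102151_c14_g1, had 121.50, 108.86 and 125.77 FPKM in control livers and 81.88, 52.90 and 73.23 in T3 livers (log2 change -0.79, SE 0.21, adjusted p = 0.0506). In tails it rose from 49.21, 37.63 and 28.97 to 69.23, 83.34 and 69.63 FPKM (0.95, SE 0.26, adjusted p = 0.0232, and 0.0633 to 0.113 without control tail 2 or any 1 T3 tail). Its T3 effects differed by -1.74 (SE 0.32, adjusted p = 0.00346), and after T3 the livers and tails overlapped.

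Genes that restrain elements were looked up by name as a list of its own. A list of 18 unigenes was picked by names tied to the piRNA machinery, which silences elements through small RNAs. Of these 2 were tested in each tissue, a MOV-10 helicase and tudor domain-containing protein 7, and neither was called under T3. The values do not show whether the MOV-10 helicase acts in that machinery. None of 8 piwi-like unigenes reached 1 FPKM in 3 libraries (0 of 8), and the highest value was 2.21 FPKM. Of 29 unigenes of heterochromatin silencing 15 were tested in the liver, where 0 were called, and 14 in the tail, where 4 rose and 0 fell. The 4 were CBX3, a heterochromatin protein, from 47.73, 32.86 and 26.64 FPKM to 80.40, 105.82 and 94.06 (log2 change 1.39, SE 0.272, adjusted p = 0.00463), DNMT3A-like, a DNA methyltransferase (1.14, adjusted p = 0.0105), TRIM28-like, a corepressor (1.06, adjusted p = 0.0155), and CBX1-like (1.02, adjusted p = 0.021). The share of 4 in 14 stands beside 19.2% of all unigenes that rose in the tail. Of 5 unigenes of antiviral restriction factors 2 were tested in the liver, both named ZC3HAV1-like, a zinc finger protein. The 1 that fell had 1.44, 1.88 and 1.64 FPKM in control and 0.38, 0.23 and 0.64 in T3 livers (-0.91, SE 0.232, adjusted p = 0.0439). No T3 liver reached 1 FPKM, so that it met the filter only through the control livers. The other was not called (-0.68, adjusted p = 0.15). Of all unigenes 8.67% fell in the liver. Of 3 restriction factors tested in the tail 0 were called. Between control tissues 2 heterochromatin unigenes of 15 were higher in the liver and 1 restriction factor of 3 was lower, beside 25.3 and 21.8% of all unigenes. Between T3 tissues 9 heterochromatin unigenes of 15 and 2 restriction factors of 3 were lower in the liver, beside 48% of all unigenes. There 1 unigene of 2 on the piRNA list was higher, beside 15.7% of all unigenes. For 3 heterochromatin unigenes of 15 the liver change minus the tail change was called negative, beside 14.3% of all unigenes.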

How the data were processed

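The authors built unigenes from cleaned paired reads with Trinity. Names come from the best NR protein match, and levels from Bowtie alignment with RSEM. The deposited FPKM values (2 decimals, 56172 unigenes, 12 libraries) were used as given. No read counts were used, so that depth is unknown. All 12 columns matched a sample label and 0 were left over. Members followed the wording rule, and groups were read from the wording; the transposase domain protein was split from the element-derived names after the wording was seen. Members and lists were chosen with earlier results of these data known.

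Unigenes with at least 1 FPKM in 3 libraries of a comparison were tested on log2(FPKM + 1) with limma 3.58.1 (R 4.3.3, intensity-dependent trend), adjusted by Benjamini-Hochberg over all tested, and called below 0.05. Functions were tested on simulated data. The text names the most abundant member of each group and members among the 10 most abundant, the largest called changes of each comparison, the called silencing genes and members called in both tissues, the last added after their values were seen. Alternatives changed the pseudocount (0.1, 5), filter, scaling, variance estimate, replicate block and libraries. Same-numbered libraries of the groups compared were not taken as pairs, since the labels give no shared source. Python 3.11.15 with pandas 2.3.3 made tables and figures.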

Additional observations from a re-analysis of the deposited data

Results flagged for a closer look

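For 15 named elements the T3 effect in the liver differed from that in the tail by the test of the difference itself (limma, Benjamini-Hochberg adjusted over 24085 unigenes). Values are liver change minus tail change on the log2(FPKM + 1) scale, with 3 libraries in each of the 4 groups. The effect was lower in the liver for the jockey-like DN121269_c10_g1 (-5.70, adjusted p = 0.00017) and DN99461_c4_g1 (-2.58, adjusted p = 0.00789), the TC1-like transposase DN95150_c8_g1 (-2.44, adjusted p = 0.000878), the LINE-1 reverse transcriptase homolog DN122496_c3_g4 (-2.32, adjusted p = 0.000355) and the reverse transcriptase DN98940_c4_g2 (-2.06, adjusted p = 0.000843). The same held for the transposases DN100047_c13_g1 (-2.17, adjusted p = 0.00218), DN90291_c4_g4 (-2.13, adjusted p = 0.00164) and DN102151_c14_g1 (-1.74, adjusted p = 0.00346) and the piggyBac transposase DN102637_c2_g1 (-1.55, adjusted p = 0.00898). It was higher in the liver for the transposases DN114630_c3_g1 (3.57, adjusted p = 0.0393), DN98233_c4_g5 (2.58, adjusted p = 4.3e-05) and DN119976_c5_g1 (1.21, adjusted p = 0.0179), the reverse transcriptase DN122007_c0_g1 (2.19, adjusted p = 0.0344), the Tc1 transposase DN110197_c8_g3 (2.07, adjusted p = 0.014) and the TC1-like DN113205_c4_g1 (1.48, adjusted p = 0.013). DN95150_c8_g1, DN90291_c4_g4, DN98940_c4_g2 and DN98233_c4_g5 were listed at 0 in every tail and DN119976_c5_g1 in every liver, so that their difference is the change within 1 tissue. DN122496_c3_g4 and DN110197_c8_g3 were at 0.07 FPKM or less in every tail. DN100047_c13_g1, DN113205_c4_g1 and DN102637_c2_g1 stayed below 1 FPKM in every liver. For DN122496_c3_g4, DN90291_c4_g4, DN98233_c4_g5, DN100047_c13_g1, DN113205_c4_g1 and DN102637_c2_g1 only 1 of the 4 groups reached 1 FPKM. That group alone admitted them to this test. Without single libraries the difference lost its call for DN114630_c3_g1 in 10 of 12 cases (0.062 to 0.0846) and for DN122007_c0_g1 in 6 (0.0596 to 0.0774), among them the case without T3 liver 2 (0.0722 and 0.0738).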

How the results depend on the processing

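No called change or tissue difference of a named element turned its direction under any alternative that could be fitted. Of 873 such values under other settings, or without control livers 1 and 2, 758 kept their call and 115 did not. Of 531 values with 1 library left out 438 kept it and 93 did not. A replicate block gave 61 calls among elements in the liver, 81 in the tail, 89 for the difference of the T3 effects, 640 between control tissues and 442 between T3 tissues, and of the main calls 50, 68, 81, 581 and 403 were kept. Deviations of same-numbered libraries from the group means correlated at 0.032 to 0.238 across genes, and the number is all that is known to join them. Between control livers and control tails the values were 0.0949, 0.19 and 0.0852. The best other number gave -0.0278, -0.0291 and 0.0414. Between control and T3 tails the best other number was higher for numbers 1 and 2 (0.0592 and 0.0347 against 0.0483 and 0.032). Whether the number marks a shared source was not tested.

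Counts of elements called moved by more than 1.5 times as follows, and the cause was not tested except where fewer unigenes or libraries entered. In the liver the count went from 76 to 49 with a pseudocount of 0.1, 23 without a filter, 18 with a mean of at least 5 FPKM (170 elements tested), 26 with single-gene variances and 1 without control livers 1 and 2. In the tail it went from 71 to 33 without a filter, 17 with a mean of at least 5 FPKM (54 tested) and 25 with single-gene variances. For the difference of the T3 effects it went from 99 to 58 with a pseudocount of 0.1, 60 without a filter, 9 with a mean of at least 5 FPKM (90 tested), 63 with median-ratio scaling and 19 without control livers 1 and 2. Between control tissues it went from 586 to 57 with a mean of at least 5 FPKM (85 tested) and 96 without control livers 1 and 2, and between T3 tissues from 426 to 63 (103 tested) and, with single-gene variances, 274. With 1 library left out the counts ran from 12 to 60 in the liver, 28 to 76 in the tail, 48 to 105 for the difference, 196 to 536 between control tissues and 186 to 320 between T3 tissues. Without the FPKM condition the wording gave 5520 members. The summed FPKM of the elements moved by more than its SD from 4282 to 3953 in control livers and from 2017 to 2365 in T3 tails with equal library sums. Leaving out the element-derived names moved it to 4073 in control livers and from 1838 to 1678 in control tails. Low FPKM and 3 libraries in a group limit what can be called.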
